A study of Rattus norvegicus with 46 samples.

Results

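Expression of 8 genes of the thioredoxin and peroxiredoxin antioxidant system was followed in rat skin through radiation and treatment with RTA-408. The genes were thioredoxin (Txn1), thioredoxin reductase (Txnrd1), the thioredoxin-binding protein Txnip, sulfiredoxin (Srxn1) and the peroxiredoxins Prdx1, Prdx2, Prdx5 and Prdx6. They were taken by symbol from the array annotation, which gave 1 feature for each, 8 of the 23188 features tested. RTA-408 (omaveloxolone) is a synthetic triterpenoid that activates the transcription factor NRF2, and the study asked what it changed in irradiated skin.

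Abdominal skin of 9 Sprague-Dawley rats was sampled repeatedly with 5 mm punches, and each punch was measured on 1 Clariom S array, 46 in all. Sex and age are not given in the labels used here. The first arm was irradiated and injected with RTA-408 in DMSO (3 rats, 1 array per rat on each of days -4, 1, 3, 7 and 14). The second arm was irradiated and injected with DMSO vehicle (3 rats, 1 array per rat on the same days). The third arm was not irradiated and was injected with vehicle (2 arrays on each day, with 1 of them from another rat on later days). Untreated skin of 6 of the rats, taken on day -10, is the baseline. Injections were on days -7, -5, -3 and 0, and the radiation was 40 Gy of 6 MeV electrons in 4 fractions of 10 Gy over 8 days, so that the day -4 biopsy fell within the treatment. Unirradiated skin with RTA-408 was not analysed here, so every statement on the drug is about irradiated skin.

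Thioredoxin reductase uses NADPH to keep thioredoxin reduced, and thioredoxin in turn reduces disulfides in other proteins, the peroxiredoxins among them. Peroxiredoxins break down hydrogen peroxide with a reactive cysteine. When that cysteine is oxidised too far, sulfiredoxin restores it in the typical peroxiredoxins such as Prdx1 and Prdx2, and Txnip holds reduced thioredoxin and blocks it. In mouse and human cells Srxn1, Txnrd1 and Prdx1 are known targets of NRF2, which binds the antioxidant response element.

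All 46 arrays measured all 8 genes above the median of the negative control features. Array medians of the log2 signal were 6.84 to 6.95, and arrays of 1 group correlated at 0.927 to 0.99. Deposited signals reach 19.66 to 19.93, wider than an ordinary 16-bit scan allows, so a difference of log2 signals is reported as such and is not turned into a fold. Levels are not compared between genes. Spiked-in control RNAs put the arrays into 3 batches of 18, 10 and 18: all 6 baseline arrays were in batch I, no array of days 3, 7 or 14 was, and batch II held a single array of each irradiated arm on every day. Keratinocyte markers (6 of 10 entries measured) averaged 13.23 to 16.98 over the arrays, and dermal fibroblast markers (8 of 8) averaged 14.16 to 16.91. Skeletal muscle markers averaged 6.30 to 8.43 in 3 arrays (baseline replicate 2, RTA-408 day -4 replicate 1 and unirradiated day 1 replicate 1) against 12.53 or more in all others. In irradiated vehicle skin of day 14, replicate 3 stood apart, with keratinocyte markers at 13.23 and macrophage markers at 14.70, the lowest and the highest of all 46 arrays. In such bulk samples, fewer cells of a type and less RNA per cell cannot be told apart.

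Promoter sequence was matched to 6 of the 8 genes by gene identifier, in 7 windows of RefSeq on build GRCr8 that run from 250 bases before to 50 bases after a gene's start. The core of the antioxidant response element, TGACNNNGC, was searched on both strands. It occurred in 3 of the 7 windows (1 of the 2 of Txnrd1, that of Prdx1 and that of Prdx5), against 12.1% (4038 of 33469) of all such windows. A match is a description and not a shown binding site, and a window without one says only that these letters are not in it. The 250 bases before the start are printed for Srxn1, which differed with RTA-408, and for Txnrd1 and Prdx1, which are known to be under the same factor, with the core in capitals. Srxn1 is shown at chr3:161064562-161064811 (plus strand), the second window of Txnrd1 at chr7:22755905-22756154 (minus strand) and Prdx1 at chr5:135383656-135383905 (plus strand).
Srxn1: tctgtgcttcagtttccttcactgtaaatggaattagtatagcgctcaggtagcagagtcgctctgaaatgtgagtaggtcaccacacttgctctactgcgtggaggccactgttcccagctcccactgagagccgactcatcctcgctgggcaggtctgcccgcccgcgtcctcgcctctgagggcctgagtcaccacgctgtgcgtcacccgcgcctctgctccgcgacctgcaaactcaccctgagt
Txnrd1: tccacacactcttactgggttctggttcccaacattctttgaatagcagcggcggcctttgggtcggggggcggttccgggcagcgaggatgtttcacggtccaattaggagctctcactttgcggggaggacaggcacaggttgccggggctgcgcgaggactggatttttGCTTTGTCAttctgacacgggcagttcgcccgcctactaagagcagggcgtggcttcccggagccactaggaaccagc
Prdx1: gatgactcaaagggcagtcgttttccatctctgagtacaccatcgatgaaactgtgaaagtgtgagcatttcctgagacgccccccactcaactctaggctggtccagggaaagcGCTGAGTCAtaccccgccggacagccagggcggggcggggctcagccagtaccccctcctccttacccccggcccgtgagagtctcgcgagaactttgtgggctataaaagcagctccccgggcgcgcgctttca
Both cores lie on the opposite strand. In Txnrd1 the core (GCTTTGTCA) begins 78 bases before the start. In Prdx1 it (GCTGAGTCA) begins 135 bases before the start and overlaps an AP-1 motif (TGANTCA). The core of Prdx5 begins 1 base before the start and is not printed. No match was found in the window of Srxn1, of Txn1, of Prdx2 or in the first window of Txnrd1.

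The first comparison asked what RTA-408 changed in irradiated skin. Srxn1, which repairs overoxidised peroxiredoxins, was the only member called, higher with RTA-408 during treatment and 1 day after the last injection. On day -4 its log2 signal was 10.44, 11.04 and 9.46 with RTA-408, against 7.90, 8.35 and 8.5 with vehicle. The groups did not overlap: the lowest RTA-408 array lay above the highest vehicle array. RTA-408 arrays averaged 10.31 ± 0.80 and vehicle arrays 8.25 ± 0.32 (SD over 3 arrays each), a difference of 2.06 ± 0.42 (SE, adjusted p = 0.0450 by limma). That made 1 of 8 members called at an adjusted p under 0.05, where 0.0474% of all features were called. On day 1 Srxn1 was at 10.81, 10.87 and 9.93 with RTA-408, against 8.67, 8.60 and 8.20 with vehicle, again without overlap. The difference was 2.05 ± 0.42 (adjusted p = 0.0336 by limma), and 1 of 8 members was called, against 0.0733% of all features.

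**Figure D1:**
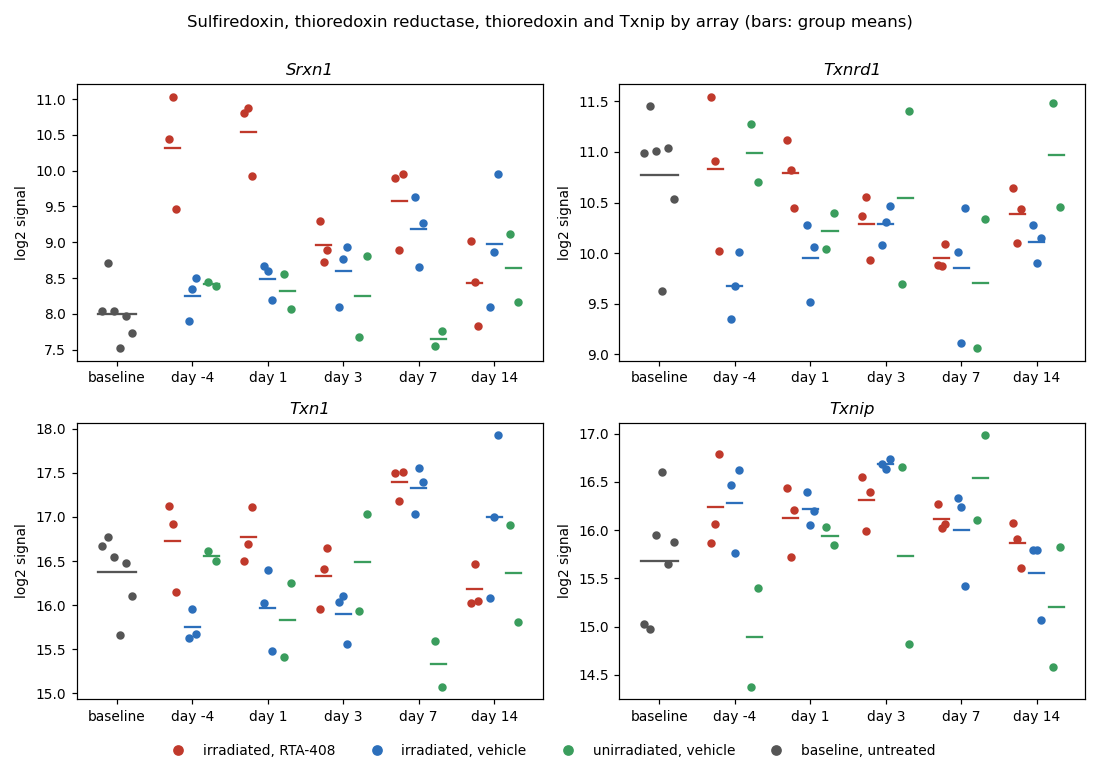
Log2 signal of Srxn1, Txnrd1, Txn1 and Txnip in each of the 46 arrays, by day (horizontal axis) and arm (colour: irradiated RTA-408, irradiated vehicle, unirradiated vehicle, baseline). Points are arrays and bars are group means. The 6 RTA-408 arrays of days -4 and 1 hold Srxn1 between 9.46 and 11.04, above the 6 vehicle arrays of those days, which reach 8.67. Txn1 is high in both irradiated arms on day 7.

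These calls rested on few arrays. The day -4 call remained without RTA-408 replicate 3 (difference 2.49, adjusted p = 0.00669) and was lost without any of the other 5 arrays compared, with differences of 1.70 to 2.19 and adjusted p of 0.116 to 0.726. On day 1 it likewise remained without RTA-408 replicate 3 (2.35, adjusted p = 0.0285) and was lost without any of the other 5, with differences of 1.88 to 2.14 and adjusted p of 0.122 to 0.387. Within batch I the difference was 2.31 on day -4 (adjusted p = 0.0213) and 2.41 on day 1 (adjusted p = 0.0301). With batch as a block it was 2.06 (adjusted p = 0.00560) and 2.05 (adjusted p = 0.00448). Other settings ended the calls. On day -4 the adjusted p was 0.0670 under quantile normalization, 0.103 with replicate number as a block and 0.999 with the compared groups alone. On day 1 it was 0.0747 with replicate number as a block and 0.0777 with the compared groups alone. All of these adjusted p values are from limma.

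**Figure D2:**
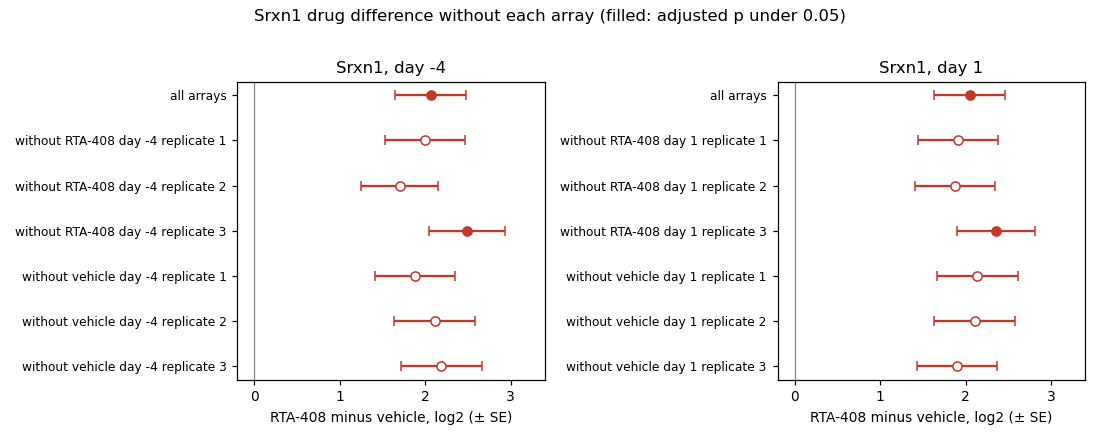
Difference of Srxn1 between RTA-408 and vehicle in irradiated skin (log2, horizontal axis, bars are SE) on day -4 and day 1, with all arrays and without each array in turn. Filled points have an adjusted p under 0.05. All values lie between 1.70 and 2.49, and besides the full comparison only the 1 without RTA-408 replicate 3 is filled on each day.

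The other components of the thioredoxin cycle did not pass the test. Txnrd1 was at 11.55, 10.91 and 10.02 with RTA-408 on day -4, against 9.35, 9.68 and 10.01 with vehicle. The groups were separated only by the narrow gap between 10.02 and 10.01, and the difference was 1.15 ± 0.42 (limma, adjusted p = 1.00). Txn1 was at 17.12, 16.92 and 16.15 with RTA-408 and at 15.62, 15.96 and 15.68 with vehicle, a difference of 0.98 ± 0.36 (adjusted p = 1.00). On day 1 the differences were 0.84 ± 0.42 for Txnrd1 and 0.80 ± 0.36 for Txn1, with no overlap between the groups for either and with an adjusted p of 1.00 for each. Prdx1 differed by 0.86 ± 0.27 on day -4 (adjusted p = 0.842), also without overlap, and by 0.49 ± 0.27 on day 1 (adjusted p = 1.00), with overlap. Prdx6, which also has a phospholipase activity, differed by 0.42 ± 0.20 on day 1 (adjusted p = 1.00) with values of 13.81, 13.79 and 13.88 with RTA-408, against 13.58, 13.55 and 13.08 with vehicle. Txnip, Prdx2 and Prdx5 had overlapping groups on both days. How many of all features had groups without overlap was not counted, in this comparison or in the others. Over the 8 members the median difference was 0.53 on day -4 and 0.45 on day 1, beside medians of -0.02 and -0.00 over all features. With Srxn1 included, 4 of 8 members on day -4 and 3 of 8 on day 1 had an unadjusted p under 0.05. Of all features 4.21% and 2.84% did.

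From day 3 on, no member was called: 0 of 8 on day 3 (0.00431% of all features), 0 of 8 on day 7 (0% of all features) and 0 of 8 on day 14 (0% of all features). At an unadjusted p under 0.05 there were 0, 0 and 1 of 8 members on those days, beside 3.44%, 2.64% and 12.5% of all features. Srxn1 was at 9.29, 8.72 and 8.89 with RTA-408 on day 3, against 8.10, 8.77 and 8.94 with vehicle. By day 7 both irradiated arms were high, at 9.89, 8.89 and 9.95 with RTA-408 and at 9.63, 8.65 and 9.27 with vehicle. On day 14 the values were 9.01, 8.44 and 7.82 with RTA-408 and 8.09, 8.87 and 9.95 with vehicle. The groups overlapped on all 3 days, and the differences were 0.37, 0.39 and -0.54, each with an SE of 0.42. Txn1 differed by -0.82 ± 0.36 on day 14 (limma, adjusted p = 0.344). Without vehicle replicate 1 that difference was -1.28 and was called (adjusted p = 0.0333), and without vehicle replicate 3, the array that stood apart, it was -0.36. Macrophage markers averaged 10.40 to 11.11 with RTA-408 that day, against 10.41 to 14.70 with vehicle, and their part in this difference was not tested.

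Whether the drug difference changed over the 5 days was tested directly with the moderated F-test of limma. No member passed (0 of 8, 0.0129% of all features). Srxn1, with differences of 2.06, 2.05, 0.37, 0.39 and -0.54, had an adjusted p of 0.241, so a change of its drug difference over the days was not called. Averaged over the 5 days of each rat, Srxn1 was at 9.89, 9.59 and 9.21 in the RTA-408 rats, against 8.48, 8.65 and 8.97 in the vehicle rats. Each RTA-408 rat was above each vehicle rat, with a difference of 0.87 ± 0.19. The rat means did not overlap either for Txn1 (difference 0.29), Prdx1 (0.28) and Prdx6 (0.19), but the gaps were narrow. The lowest RTA-408 and highest vehicle rats were at 16.62 and 16.60 for Txn1. They were at 14.86 and 14.82 for Prdx1 and at 13.14 and 13.12 for Prdx6. How many of all features were separated likewise was not counted. For each of these 4 genes an exact two-sided permutation test over the 6 rats gave p = 0.1, the smallest that 3 against 3 allows, and limma on the rat means called 0 of 8 members (adjusted p = 1.00; 0% of all features).

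Genes around the members were taken from a list of 38 in the same pathways, of which 31 were measured. They covered the other thioredoxins and reductases, the other peroxiredoxins and the sestrins, glutaredoxins and methionine sulfoxide reductases. Other peroxide-removing enzymes, superoxide dismutases, and relatives and regulators of Txnip were included too. Of these 31 genes 0 were called between RTA-408 and vehicle on each of the 5 days. Of all features 0% to 0.0733% were called in that comparison. Known NRF2 targets outside the system gave another count: 7 of 18 measured targets were called higher on day -4 and 7 of 18 on day 1, and 0 of 18 on days 3, 7 and 14. Among them Nqo1, a quinone reductase, differed by 3.88 ± 0.60 on day -4 (limma, adjusted p = 0.00255) and by 3.77 ± 0.60 on day 1 (adjusted p = 0.00181). Gclm, the modifier subunit of glutathione synthesis, differed by 1.98 ± 0.36 on day -4 (adjusted p = 0.0172) and by 1.47 ± 0.36 on day 1 (adjusted p = 0.213).

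The signal of hair shaft markers varied between the arrays of this comparison. The mean of 5 hair shaft markers (5 of 10 entries measured) was 14.19, 12.13 and 6.01 with RTA-408 on day -4, against 6.17, 9.83 and 8.82 with vehicle. RTA-408 replicate 3, with the lowest of these means, also had the lowest RTA-408 values of Srxn1, Txnrd1 and Txn1. It was the only batch II array of its group, so batch and hair shaft signal cannot be told apart there. On day 1 the means ranged from 5.88 to 10.37 with RTA-408 and from 5.82 to 10.22 with vehicle. Of the hair shaft markers 0 of 5 were called on each of the 5 days, and 0 members of the other 10 marker lists were. Whether the hair shaft signal has a part in the differences of Srxn1, Txnrd1 and Txn1 was not tested.

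The second comparison asked what radiation changed without the drug. Peroxiredoxins were among the called members on 4 of the 5 days. During treatment, on day -4, Prdx5, Prdx6 and Txnip were higher in irradiated than in unirradiated vehicle skin, 3 of 8 members, where 7.42% of all features were called. Prdx5, a peroxiredoxin found in mitochondria, peroxisomes and cytosol, was at 12.15, 11.97 and 12.15 in irradiated skin, against 10.57 and 10.76 in unirradiated skin. Its difference was 1.42 ± 0.33 (limma, adjusted p = 0.00732). Prdx6 was at 13.02, 12.76 and 12.80 in irradiated skin, against 11.83 and 11.89 in unirradiated skin, a difference of 1.00 ± 0.22 (adjusted p = 0.00632). For neither gene did the groups overlap.

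Txnip, the inhibitor of thioredoxin, was at 16.47, 15.76 and 16.62 in irradiated skin on day -4, against 14.38 and 15.40 in unirradiated skin. The groups did not overlap, and the difference was 1.40 ± 0.44 (limma, adjusted p = 0.0483). With batch as a block it was 1.31 (adjusted p = 0.0884) and within batch I 1.30 (adjusted p = 0.142). The Txnip call was lost without irradiated replicate 1 or 3 or either unirradiated array (differences of 0.88 to 1.91), and those of Prdx5 and Prdx6 were lost without either unirradiated array (adjusted p of 0.0707 to 0.108). Txnrd1 was at 9.35, 9.68 and 10.01 in irradiated skin, against 11.27 and 10.70 in unirradiated skin. Its difference of -1.31 ± 0.46 did not pass the test (adjusted p = 0.0797). Prdx2, a peroxiredoxin abundant in red blood cells, was at 13.04, 13.40 and 13.08 in irradiated skin, against 13.92 and 13.88 in unirradiated skin. The groups did not overlap, and the difference of -0.72 ± 0.31 did not pass the test (adjusted p = 0.160) but was called with array weights (-0.75, adjusted p = 0.0290). With array weights Txnrd1 was called too (-1.29, adjusted p = 0.0140). On later days Prdx2 differed by -0.24, -0.45, 0.55 and -0.06, none called.

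On day 1 Prdx6 was the only member called, 1 of 8 against 2.1% of all features. It was at 13.58, 13.55 and 13.08 in irradiated skin, against 11.99 and 12.29 in unirradiated skin, a difference of 1.26 ± 0.22 (limma, adjusted p = 0.00257). The lowest irradiated array was clear of the higher unirradiated one. Without unirradiated replicate 1 the difference was 1.11 (adjusted p = 0.0595), and within batch I it was 1.19 (adjusted p = 0.0803). On day 3 no member was called (0 of 8, 1.3% of all features), with 3 of 8 members, beside 13.6% of all features, at an unadjusted p under 0.05. Prdx6 then differed by 0.61 ± 0.22 (adjusted p = 0.189), Prdx5 by 0.86 ± 0.33 (adjusted p = 0.203) and Txnip by 0.95 ± 0.44 (adjusted p = 0.333). The 2 unirradiated arrays were far apart for Txnip that day, at 16.66 and 14.82, against 16.68, 16.64 and 16.74 in irradiated skin. Without the first of them, replicate 1, Txnip differed by 1.87 and was called (adjusted p = 0.0286).

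On day 7 thioredoxin itself, Prdx1 and Prdx6 were called higher in irradiated skin, 3 of 8 members against 4.02% of all features. Txn1 was at 17.03, 17.56 and 17.39 in irradiated skin, against 15.60 and 15.07 in unirradiated skin. The lowest irradiated array was well above the higher unirradiated one, and the difference was 1.99 ± 0.40 (limma, adjusted p = 0.00427). Against baseline Txn1 differed that day by 0.95 in irradiated skin and by -1.04, not called, in unirradiated skin. Both arms thus entered the 1.99, and unirradiated replicate 2 came from another rat from day 7 on. Prdx1, a cytosolic peroxiredoxin, was at 14.93, 15.53 and 15.74 in irradiated skin, against 14.29 and 13.67 in unirradiated skin. Its difference was 1.42 ± 0.30 (adjusted p = 0.00570), and the groups did not overlap. Prdx6 was at 13.32, 13.07 and 13 in irradiated skin, against 12.50 and 12.12 in unirradiated skin, a difference of 0.82 ± 0.22 (adjusted p = 0.0324). Srxn1 was at 9.63, 8.65 and 9.27 in irradiated skin, against 7.55 and 7.75 in unirradiated skin. It did not overlap either, but its difference of 1.53 ± 0.47 did not pass the test (adjusted p = 0.0546).

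The day 7 calls were sensitive to single arrays. Without unirradiated replicate 2 none of the 3 remained: Txn1 then differed by 1.73 (limma, adjusted p = 0.116), Prdx1 by 1.11 (adjusted p = 0.169) and Prdx6 by 0.63 (adjusted p = 0.350). The Prdx1 call was also lost without irradiated replicate 3 (1.25, adjusted p = 0.0502), and that of Prdx6 without any single array of the 5. Among single arrays left out, Srxn1 was called only without irradiated replicate 2 (1.80, adjusted p = 0.0439). It was also called with batch as a block (1.77, adjusted p = 0.00705) and with array weights (1.54, adjusted p = 0.0235). The call appeared too with the compared groups alone (adjusted p = 0.0392) and without the dimmest features (adjusted p = 0.0457). It was absent under quantile normalization (adjusted p = 0.0731) and with rat as a random block (0.0544). With replicate number as a block (0.0758) and within batch III (0.125) it was absent too. Within batch III, which holds 2 arrays of each group, the differences were 1.88 for Txn1, 1.35 for Prdx1 and 0.85 for Prdx6, with adjusted p of 0.0939, 0.111 and 0.145.

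On day 14 the called members were Prdx1 and Prdx5, 2 of 8 against 6.96% of all features. Prdx5 was at 11.61, 12.60 and 12.08 in irradiated skin, against 10.18 and 11.25 in unirradiated skin, a difference of 1.38 ± 0.33 (limma, adjusted p = 0.00864). Prdx1 was at 14.63, 15.01 and 15.82 in irradiated skin, against 14.33 and 14.00 in unirradiated skin, a difference of 0.99 ± 0.30 (adjusted p = 0.0384). Neither gene overlapped between the groups. The highest Prdx1 value came from replicate 3, the array that stood apart, and without it Prdx1 differed by 0.66 (adjusted p = 0.341). The Prdx1 call was also lost without irradiated replicate 2 (1.06, adjusted p = 0.0501) or unirradiated replicate 1 (1.15, adjusted p = 0.151) or 2 (0.83, adjusted p = 0.240), and that of Prdx5 without unirradiated replicate 1 (0.85, adjusted p = 0.357). Macrophage markers were higher in irradiated skin, with 5 of 13 called on day 7 and 12 of 13 on day 14. Their mean was 10.70 to 12.05 in irradiated skin against 8.90 to 9.15 in unirradiated skin on day 7, and 10.41 to 14.70 against 8.39 to 9.29 on day 14. Their part in the differences of Txn1 and Prdx1 was not tested.

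Whether the radiation difference changed over the days was tested with the same F-test. It called 1 of 8 members, Txn1 (limma, adjusted p = 0.0209), against 2.16% of all features. The Txn1 differences were -0.81, 0.14, -0.58, 1.99 and 0.64 on days -4, 1, 3, 7 and 14. The call was lost when irradiated replicate 2 or 3 or unirradiated replicate 2 was left out on all days, and Prdx1 was called as well without irradiated replicate 1.

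**Figure D3:**
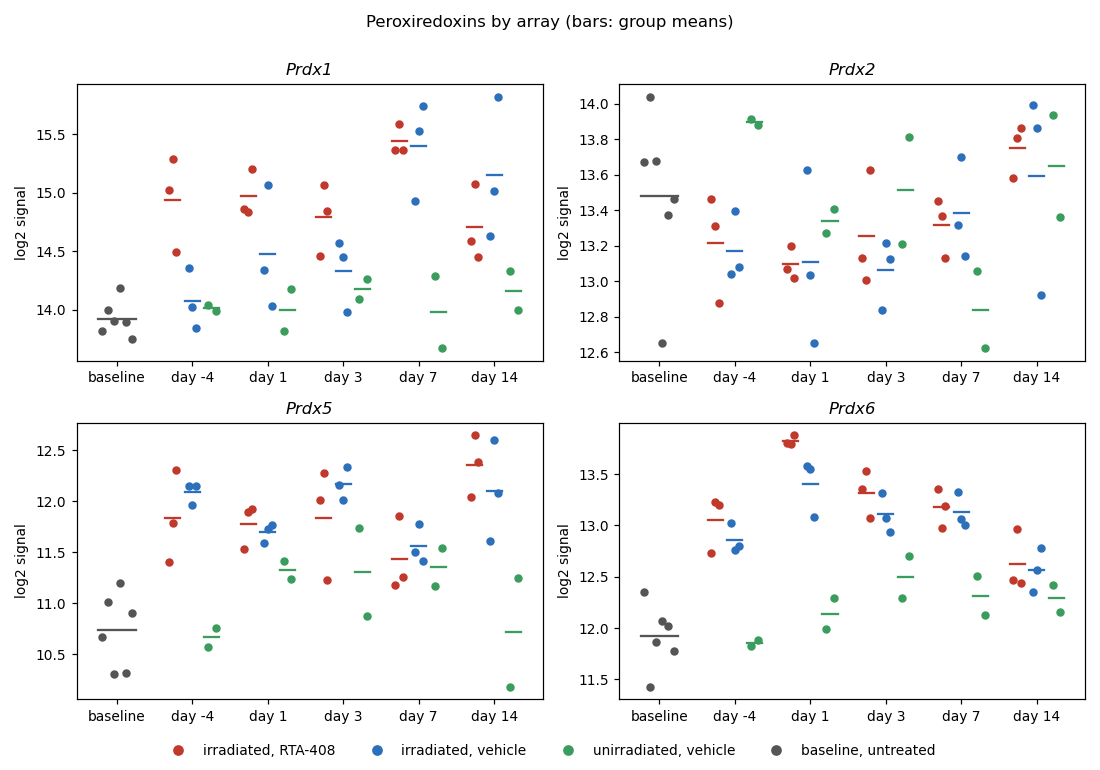
Log2 signal of Prdx1, Prdx2, Prdx5 and Prdx6 in each of the 46 arrays, by day (horizontal axis) and arm (colour), with bars for group means. All 30 irradiated arrays hold Prdx6 at 12.35 or more, and the baseline arrays lie between 11.43 and 12.35. Prdx2 lies between 12.62 and 14.04, and on day -4 both unirradiated arrays (13.92 and 13.88) lie above all 6 irradiated ones.

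Of the 31 pathway genes measured, 4 were higher and 1 was lower with radiation on day -4. Gpx1, a cytosolic glutathione peroxidase, differed by 2.1, Gpx3, the secreted form, by 1.81, Sod3, an extracellular superoxide dismutase, by 1.75 and Sesn3, a sestrin, by -1.37. Arrdc3, an arrestin relative of Txnip, completed the count at 0.86. A single gene was higher on day 1 (Txn2, the mitochondrial thioredoxin, 1.21), 1 on day 3 (Sesn2, a stress-induced sestrin, 1.33) and 1 on day 14 (Gpx1, 1.97). On day 7 there were 4: Gpx2 (2.35), Txndc17 (1.82), the glutaredoxin Glrx3 (1.31) and Sesn2 (1.31). All of these had a limma adjusted p of 0.0486 or less. Of all features 7.42%, 2.1%, 1.3%, 4.02% and 6.96% were called with radiation on days -4, 1, 3, 7 and 14.

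The third question was how each arm stood against the untreated skin of day -10. The 3 arms share these 6 baseline arrays, so their calls are not independent of each other. With RTA-408, 4 of 8 members were called on day -4 (5.79% of all features called), 4 on day 1 (11%), 3 on day 3 (9.69%), 4 on day 7 (15.8%) and 3 on day 14 (10.2%). In irradiated vehicle skin 3 members were called on day -4 (10.7%), 2 on day 1 (9.72%), 2 on day 3 (8.54%), 5 on day 7 (14%) and 3 on day 14 (15.4%). All of these were higher than baseline except Txnrd1 in vehicle skin on day -4. In unirradiated vehicle skin 0 of 8 were called by limma on each day, where 0.0173%, 0.315%, 0%, 2.71% and 0% of all features were. At an unadjusted p under 0.05 the unirradiated arm had 0, 0, 1, 5 and 0 of 8 members on those days, beside 9.12%, 13.5%, 4.56%, 17.4% and 4.24% of all features.

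Prdx6 was called higher in both irradiated arms on all 5 days. Its baseline ran from 11.43 through a median of 11.94 to 12.35. With RTA-408 it exceeded baseline by 1.13, 1.91, 1.40, 1.26 and 0.70 on days -4, 1, 3, 7 and 14, and with vehicle by 0.94, 1.49, 1.19, 1.21 and 0.65, each with an SE of 0.17. The limma adjusted p ranged from 1.87e-09 to 0.00785. Day 1 held the largest difference and day 14 the smallest in both arms. On day 14 the call was lost without RTA-408 replicate 2 (0.54) or vehicle replicate 3 (0.54), and on days -4 to 7 no single array ended it. In unirradiated skin the differences were -0.06, 0.22, 0.58, 0.40 and 0.37, none called.

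Prdx5 exceeded its baseline (10.31 to 11.20, median 10.79) by 1.10, 1.05, 1.10, 0.69 and 1.62 with RTA-408 and by 1.35, 0.96, 1.43, 0.83 and 1.36 with vehicle, each with an SE of 0.25. All were called except day 7 with RTA-408 (limma, adjusted p = 0.0576). Prdx1 exceeded its baseline (13.75 to 14.18, median 13.90) on all 5 days with RTA-408, by 1.01, 1.04, 0.86, 1.51 and 0.78. With vehicle it was called on day 7 (1.47) and day 14 (1.23) and not on days -4, 1 and 3 (0.15, 0.55 and 0.41), each with an SE of 0.23. That difference in calls does not show that the arms differ, since Prdx1 did not pass the direct comparison of RTA-408 and vehicle on any day. Prdx1 calls were lost without RTA-408 replicate 2 on day -4 (0.83), replicate 2 or 3 on day 3 (0.73 and 0.84) and replicate 1 or 2 on day 14 (0.84 and 0.59). Prdx5 calls were lost without RTA-408 replicate 3 on day -4 (0.86) or replicate 2 on day 3 (0.88), without vehicle replicate 2 or 3 on day 1 (0.94 and 0.93), and on day 7 without any vehicle array or baseline replicate 3 or 5 (0.72 to 0.90). Day 7 with RTA-408 was called without baseline replicate 4 (0.79).

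Srxn1 exceeded its baseline (7.52 to 8.71, median 8.00) with RTA-408 by 2.31 on day -4, by 2.54 on day 1 and by 1.58 on day 7, with limma adjusted p of 6.95e-05, 1.02e-05 and 0.00185. No single array ended these 3 calls. Its differences of 0.97 on day 3 and 0.43 on day 14 were not called. With vehicle it was called on day 7 (1.19, adjusted p = 0.0225), and that call was lost without vehicle replicate 1 (0.96) or 3 (1.14). On day 14 vehicle skin was at 0.97 (adjusted p = 0.0654), and the call appeared without baseline replicate 2 (1.11) or vehicle replicate 1 (1.41).

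Thioredoxin was called against baseline (15.66 to 16.78, median 16.51) on day 7 alone, by 1.02 ± 0.31 with RTA-408 (limma, adjusted p = 0.0210) and by 0.95 ± 0.31 with vehicle (adjusted p = 0.0365). The day 7 values were 17.50, 17.19 and 17.51 with RTA-408 and 17.03, 17.56 and 17.39 with vehicle, all above the highest baseline array. Unirradiated skin went the other way that day, with Txn1 at 15.60 and 15.07 and a difference of -1.04 that was not called (adjusted p = 0.114). The Txn1 call was lost without RTA-408 replicate 1 or 3 (0.97 each) in that arm, and without vehicle replicate 2 or 3 or baseline replicate 4 or 6 (0.81 to 0.92) in the vehicle arm. Its reductase Txnrd1 fell below baseline (9.63 to 11.45, median 11) in vehicle skin on day -4, by -1.10 ± 0.36 (adjusted p = 0.0446). That call was lost without any vehicle array or without baseline replicate 1, 2, 3 or 5 (-0.93 to -1.26). Without baseline replicate 4, which held its lowest baseline value, Txnrd1 was also called lower with RTA-408 on day 7 (-1.06), in vehicle skin on days 1 (-1.05) and 7 (-1.15) and in unirradiated skin on day 7 (-1.30), and so was Txn1 in unirradiated skin on day 7 (-1.18).

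Txnip and Prdx2 were the members with no call against baseline in any arm. Txnip differed by 0.19 to 0.63 with RTA-408 and by -0.13 to 1.01 with vehicle. The largest of these, on day 3 with vehicle, had an adjusted p of 0.0635 by limma and was called without baseline replicate 4 (1.19). Prdx2 differed by -0.38 to 0.27 with RTA-408 and by -0.42 to 0.11 with vehicle. It also had the smallest range over the 46 arrays, 1.42 on the log2 scale, whereas Srxn1 had the widest, 3.51.

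**Figure D4:**
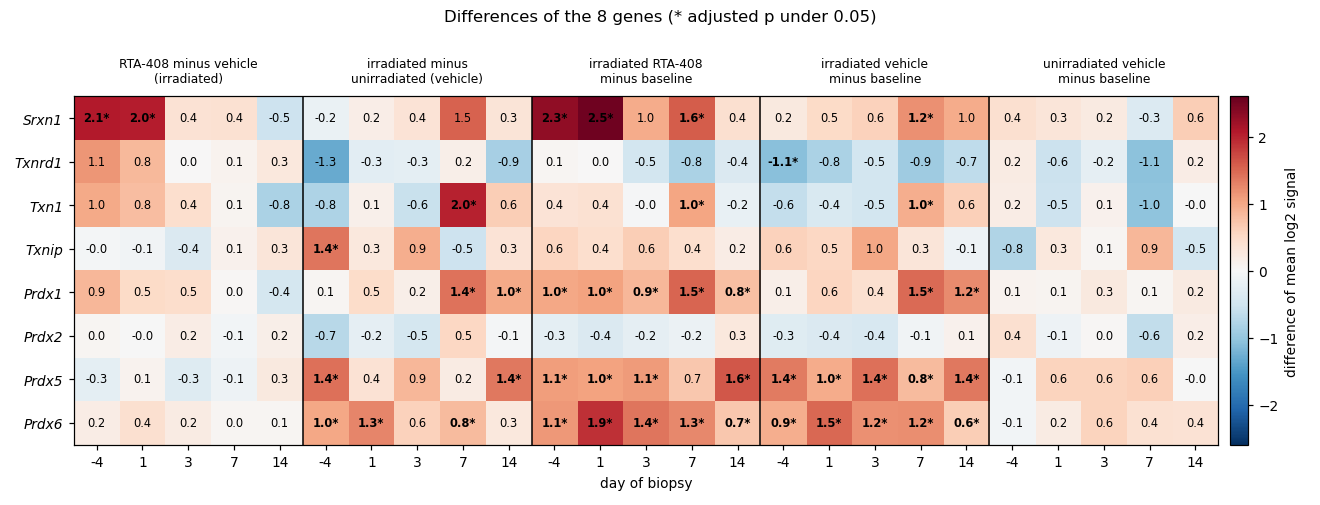
Difference of mean log2 signal for the 8 genes (rows) in 5 comparisons, each on days -4, 1, 3, 7 and 14 (columns). Colour and number give the difference and an asterisk an adjusted p under 0.05. Srxn1 has the asterisks of the RTA-408 comparison (2.06 and 2.05), Prdx6 those of both irradiated arms against baseline on all days, and unirradiated skin has none.

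The baseline comparisons cross batches, since days 3, 7 and 14 hold no array of batch I. With batch as a block Prdx6 remained called on day 3 with RTA-408 and with vehicle, while Prdx1 (0.72) and Prdx5 (0.98) with RTA-408 and Prdx5 (1.31) with vehicle did not. On day 7 with vehicle Prdx1 and Prdx6 remained of 5 called, and Txn1 with RTA-408 was lost (0.93, adjusted p = 0.305 by limma). On day 14 Prdx5 remained with RTA-408, while Prdx1 (0.64) and Prdx6 (0.56) did not. No vehicle member remained that day, with Prdx1 at 1.09, Prdx5 at 1.24 and Prdx6 at 0.50. Txnrd1 in vehicle skin of day -4 was not called with the block either (-0.86, adjusted p = 0.132).

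Pairing each biopsy with the baseline of its own rat was possible for 2 rats in each arm. Prdx6 and Prdx5 were above their own baseline in 10 of 10 biopsies with RTA-408 and in 10 of 10 with vehicle, against 6 of 8 and 5 of 8 in unirradiated skin. Prdx6 moved by 0.12 to 2.36 with RTA-408, by 0.49 to 1.72 with vehicle and by -0.20 to 0.92 in unirradiated skin. Prdx1 was above its own baseline in 10 of 10 biopsies with RTA-408, in 9 of 10 with vehicle and in 7 of 8 without radiation, and Srxn1 in 9 of 10, 9 of 10 and 6 of 8. Txnip was above in 10 of 10 with RTA-408 and in 5 of 10 with vehicle. Prdx2 was below in 10 of 10 with RTA-408 and above in 6 of 10 with vehicle. The 5 biopsies of a rat share 1 baseline array, and the starting values differed. For Txnip the RTA-408 rats started at 15.03 and 14.98 and the vehicle rats at 15.95 and 16.60, while the means over the 5 days were 16.13 in the 3 RTA-408 rats and 16.15 in the 3 vehicle rats. For Prdx2 the RTA-408 rats started at 13.67 and 14.04 and the vehicle rats at 13.68 and 12.65. These counts describe 2 rats an arm and were not tested.

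Pathway genes were also called against baseline. With RTA-408, 8, 8, 7, 7 and 2 of the 31 were higher on days -4, 1, 3, 7 and 14, and 0, 1, 1, 1 and 1 were lower. In irradiated vehicle skin 5, 5, 4, 8 and 2 were higher and 1, 2, 2, 2 and 1 lower, and in unirradiated skin 0, 1, 0, 2 and 0 were higher and 0, 0, 0, 1 and 0 lower. Of all features 5.79%, 11%, 9.69%, 15.8% and 10.2% were called, higher or lower, with RTA-408 on those days. With vehicle the shares were 10.7%, 9.72%, 8.54%, 14% and 15.4%, and in unirradiated skin 0.0173%, 0.315%, 0%, 2.71% and 0%. Gpx1 was higher in both irradiated arms on all 5 days, by 1.20 to 1.94 with RTA-408 and by 1.24 to 1.97 with vehicle. Glrx, the cytosolic glutaredoxin, was the largest of the list on day 7, at 2.40 with RTA-408, 2.80 with vehicle and 1.55 in unirradiated skin. Cat, the peroxisomal catalase, was called with RTA-408 on days -4 (1.33) and 1 (1.81).

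Hair shaft markers were also lower in both irradiated arms than at baseline. Their mean was 12.96 to 16.63 in the baseline arrays. It was 5.60 to 14.19 in the RTA-408 arrays and 5.62 to 12.36 in the irradiated vehicle arrays. Against baseline 4 of 5 markers were called lower on day -4 with RTA-408 and 5 of 5 on every other day and with vehicle on all 5 days. Between irradiated and unirradiated vehicle skin 5, 2, 4, 0 and 5 of 5 were called lower on days -4, 1, 3, 7 and 14. On day 7 unirradiated skin was low as well, at 7.11 and 5.94, against 5.72, 5.76 and 5.64 in irradiated skin. In unirradiated skin of day 7, where 5 of 5 hair shaft markers were below baseline, the members differed from baseline by -1.07 (Txnrd1), -0.35 (Srxn1), -1.04 (Txn1), 0.86 (Txnip), 0.06 (Prdx1), -0.64 (Prdx2), 0.62 (Prdx5) and 0.40 (Prdx6). None was called, where 2.71% of all features were, and 5 of the 8 had an unadjusted p under 0.05, beside 17.4% of all features. With replicate number as a block Txnrd1, Txn1 and Prdx2 were called lower. Only baseline has replicates 4, 5 and 6, so that block in effect left these arrays out of the comparison. Replicate 4 held the lowest baseline values of these 3 genes. Whether the hair shaft signal has a part in the differences of the members was not tested.

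**Figure D5:**
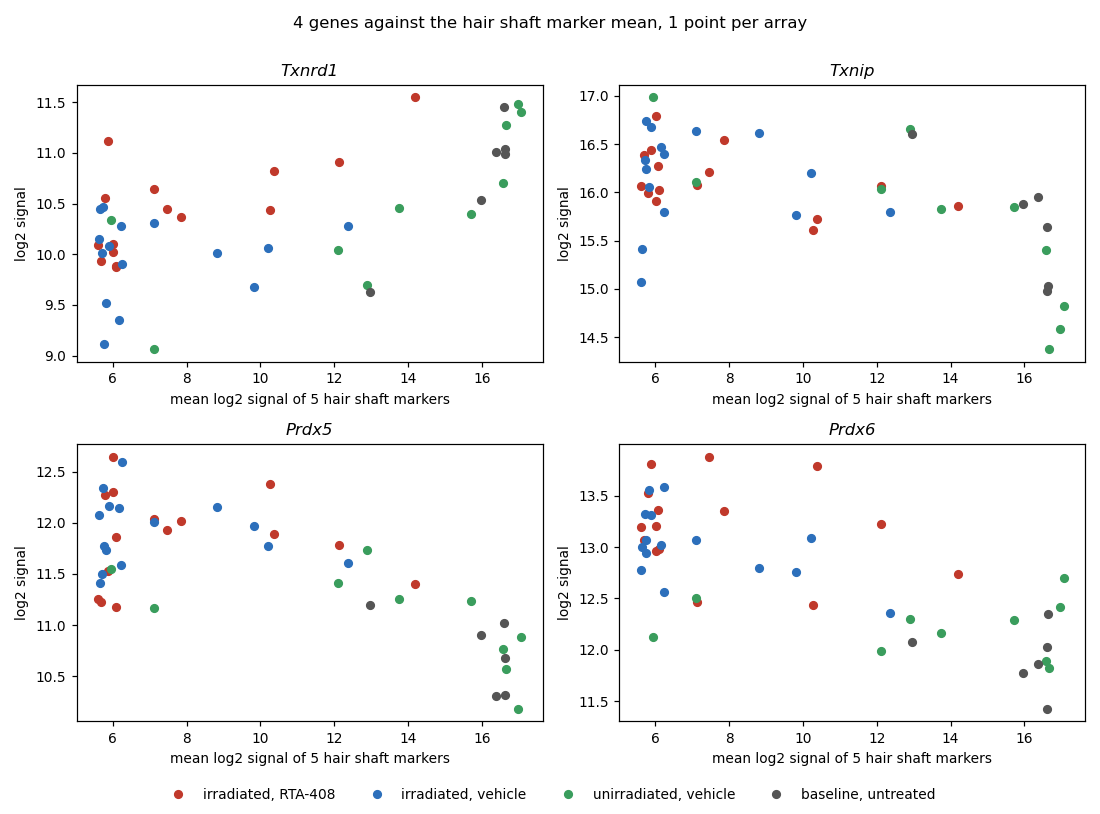
Log2 signal of Txnrd1, Txnip, Prdx5 and Prdx6 (vertical axes) against the mean log2 signal of 5 hair shaft markers (horizontal axis), 1 point per array, coloured by arm. Unirradiated day 7 gives the 2 unirradiated points at 7.11 and 5.94. The other unirradiated arrays lie at 12.11 or more and the baseline arrays at 12.96 or more.

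Among themselves the members followed different courses over the 16 group means. These points share arrays, rats and batches, and the correlations are given as a description. Prdx1 and Txn1 correlated at 0.79 and Prdx1 and Srxn1 at 0.74, and Prdx2 and Txnip ran against each other at -0.89. Of all features with 1 symbol, those most like Srxn1 were Gstp1 (0.90), Nqo1 (0.88) and Tsku (0.88). Txnrd1 was most like Gclc (0.87), Crym (0.87) and Thtpa (0.83). The closest to Prdx6 were Aldh1l1 (0.94), Gstm2 (0.94) and Gstm4 (0.93), and the closest to Prdx1 were Fscn1 (0.94), Cd14 (0.93) and Fcgr1a (0.93). Txn1 was closest to Cmtr1 (0.91), Noc3l (0.90) and Ppm1g (0.87). Txnip was closest to Cpe (0.92), Serinc1 (0.91) and Morf4l1 (0.90), Prdx2 to Yod1 (0.92), Eif3i (0.91) and Erh (0.91), and Prdx5 to Kctd4 (0.94), Il18 (0.90) and Rbm43 (0.90).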

How the data were processed

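RNA of each punch (100 ng, mean RNA integrity number 7.15) was made into biotin-labelled cDNA, of which 2.5 ug was hybridised, per the labels' protocols. The table deposited by the authors holds 1 log2 signal per feature and array; its scale and normalization are not given in the sources used here. Its values were used as deposited. The table has 24834 features; leaving out 1646 controls gave 23188 for testing, of which 15049 had 1 symbol and 8139 none in the annotation supplied for the array. A single channel was measured per array, and the raw scans were not analysed here. The number of arrays limits the precision.

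Samples were grouped by arm and day from their titles. For unirradiated day 1 replicate 2 a description says day 3, and the title was followed. The main test used limma 3.58.1 (R 4.3.3) with a mean for each of the 16 groups, over the 46 arrays and every feature (moderated variances, 30 residual degrees of freedom), so that small groups share 1 estimate of the spread. Within each comparison and day the Benjamini-Hochberg adjustment ran over all 23188 features, and adjusted p values under 0.05 count as calls. The fit treats the repeated biopsies of a rat as separate samples, so rat means were also compared. The fit was tested on simulated data: for RTA-408 against vehicle on day -4 it recovered 49.3% of 67 features changed by 1, 92.5% of 67 changed by 2 and 90.9% of 66 changed by 4, over 23188 features. In the deposited data this comparison called only 11 features, which makes the adjustment stricter than in the simulation. These rates are therefore too high for the deposited comparison.

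The 8 genes, the pathway, NRF2 target and marker lists (148 of 172 entries measured) and the tests were chosen with earlier results of these data known. The 8 genes are described in each comparison, and of the pathway list up to 4 called genes with the largest differences per comparison and day. A few named beyond these were chosen after their values were seen. Alternatives tried were quantile normalization, leaving out the dimmest 25% of features (5797), array weights, rat as a random block, replicate number as a block, the compared groups alone, batch as a block, within batch, and leaving out each array.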

Additional observations from a re-analysis of the deposited data

Results flagged for a closer look

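The radiation difference of Txn1 changed over the 5 days: the moderated F-test of limma gave an adjusted p of 0.0209, where 2.16% of all features were called. The differences between irradiated and unirradiated vehicle skin were -0.81, 0.14, -0.58, 1.99 and 0.64 on days -4, 1, 3, 7 and 14. On day 7 Txn1 averaged 17.33 ± 0.27 in irradiated skin (SD, n = 3) and 15.34 ± 0.37 in unirradiated skin (n = 2). The baseline arrays averaged 16.37 ± 0.42 (n = 6), between these means. The call remained with rat as a random block and with batch as a block. It was lost without irradiated replicate 2 or 3 or without unirradiated replicate 2 on all days, and without irradiated replicate 1 Prdx1 was called too. The 7 other members did not pass this test, with adjusted p of 0.15 to 0.502.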

How the results depend on the processing

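Counts of called members stayed within 1.5 times of the reported count in 343 recomputations and moved further in 55. RTA-408 against vehicle gave 0 instead of 1 on day -4 under quantile normalization, the replicate block and the compared groups alone, and 0 instead of 1 on day 1 under the replicate block and the compared groups alone. Radiation gave 5 (array weights) and 1 (within batch I) instead of 3 on day -4, 0 instead of 1 on day 1 (compared groups alone; within batch I), 0 instead of 3 on day 7 (within batch III), and on day 14 1 (array weights; replicate block) and 0 (compared groups alone) instead of 2. Against baseline with batch as a block, RTA-408 gave 1 on day 3 and 1 on day 14, and vehicle gave 1 on day 3, 2 on day 7 and 0 on day 14. Baseline replicates 4, 5 and 6 have no same-numbered array in another group. The replicate block therefore in effect leaves them out of every comparison with baseline. With that block vehicle gave 4 on day 3 (Txnip, Prdx2, Prdx5 and Prdx6). Unirradiated skin on day 7 gave 1 with array weights and 3 with the replicate block (Txnrd1, Txn1 and Prdx2).

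Without each array in turn the counts were 0 to 1 for RTA-408 against vehicle on days -4, 1 and 14. For radiation they were 0 to 3 on days -4 and 7, 0 to 1 on days 1 and 3 and 0 to 2 on day 14. For RTA-408 against baseline they were 3 to 4 on day -4, 1 to 3 on days 3 and 14 and 3 to 6 on day 7. For vehicle against baseline they were 2 to 3 on days -4 and 3, 1 to 3 on day 1 and 2 to 5 on days 7 and 14. Unirradiated skin on day 7 and the change of the radiation effect gave 0 to 2.

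The Txnrd1 difference between RTA-408 and vehicle on day 3, near 0, reversed under quantile normalization (-0.0205), array weights (-2.47e-05), rat as a random block (-0.0036) and within batch III (-0.24), and ran from -0.14 to 0.18 without single arrays. On day 7 Txnrd1 reversed within batch III (-0.24), and without single arrays the differences ran from -0.28 to 0.39 for Txnrd1, from -0.078 to 0.18 for Txn1 and from -0.19 to 0.21 for Prdx1. No other member's direction reversed among those recomputed (called, unadjusted p under 0.05, or Srxn1, Txnrd1, Txn1 and Prdx1 in the drug comparison). The cause of these changes was not tested, except that leaving out arrays or comparing groups alone leaves fewer arrays.

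Replicate numbers did not pair arrays: same-numbered arrays of different arms, which are different rats, correlated in their deviations from the group means at -0.38 to 0.25, with 3 of 15 pairs over 0.1. The replicate block lost the 2 Srxn1 calls (adjusted p = 0.103 and 0.0747 by limma) and changed counts as above. With 2 to 3 arrays per arm and day, the small group size limits what can be called.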
